A study of Mus musculus with 18 samples.

Results

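The genes described here are 38 genes of the cell cycle and DNA replication, among the 54838 genes of the deposited count table. They were chosen by symbol, through the GENCODE M21 names of the table's Ensembl identifiers, and the rule itself uses no measured value. By role, 17 act in the passage from G1 to S phase and in DNA synthesis: 10 in the licensing of replication origins and at the fork, 4 in deoxynucleotide synthesis and 3 in G1 to S control. The other 21 act in mitosis: 9 cyclins and kinases, 2 genes of the anaphase-promoting complex and 10 genes of the spindle, kinetochore and chromosomes.

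RNA came from wild-type C57BL/6 mice in every group, as total RNA and as polysomal RNA, the mRNA that sediments with several ribosomes in a gradient. Myeloid-derived suppressor cells, which are immature myeloid cells that restrain T cells, were grown from bone marrow in culture for 5 days and sorted as Cd11b-high cells. The group named LY6G was Ly6G-high and Ly6C-intermediate, and the group named LY6C was Ly6G-negative and Ly6C-high. Sorted cells were plated again and collected with cycloheximide on the following day. The group named BM was marrow flushed from the femurs of 3 mice, with red cells lysed and without a sort. Each of the 6 groups (3 kinds of cells in 2 fractions) holds 3 libraries, numbered 2, 3 and 6 for sorted cells and 1, 2 and 3 for BM, and values below follow that order. The sorted cells are thus a culture model that has passed a differentiation step and a second plating, while BM is a fresh mixture of cell types. Both sorted populations are compared with the same BM libraries.

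In G1 phase, E2F transcription factors are held back by RB family proteins until cyclin-dependent kinases release them, and E2F then turns on the genes of origin licensing, deoxynucleotide supply and the replication fork. In G2 phase, the MuvB complex with B-MYB and FOXM1 turns on the mitotic cyclins, kinases and spindle genes. In the myeloid lineage, division is a property of the precursor stages and ends as neutrophils and macrophages mature, so these mRNAs are widely used to mark cycling precursors.

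Promoter sequences show how the members divide at the DNA level, and those of 7 members are printed. Tk1, Mcm7, Cdc6, Cdt1 and Mki67 are called in comparisons with BM below, and Cdk1 and Plk1 are uncalled mitotic genes shown for their CHR and CCAAT words. RefSeq windows of build GRCm38.p6, from 250 bases before to 50 bases after the transcription start, were matched for 31 of the 38 members (not for Aurkb, Ccna2, Ccne2, Gins2, Kif20a, Mcm4 and Tpx2). They are written 5′ to 3′ on the gene's strand. Capitals mark matches, on either strand, to 4 E2F words (TTTCCCGC, TTTGGCGC, TTTCGCGC and TTTGCCGC), to the cell cycle homology region word TTTGAA (CHR) and to CCAAT.
Tk1 (chr11:117825965-117826264, minus strand): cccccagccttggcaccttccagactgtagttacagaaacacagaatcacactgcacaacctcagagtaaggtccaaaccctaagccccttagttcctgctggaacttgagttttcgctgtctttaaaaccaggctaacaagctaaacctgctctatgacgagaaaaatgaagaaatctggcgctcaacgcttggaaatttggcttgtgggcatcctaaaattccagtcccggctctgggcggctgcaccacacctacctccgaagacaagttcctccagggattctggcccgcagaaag
Mcm7 (chr5:138171834-138172133, minus strand): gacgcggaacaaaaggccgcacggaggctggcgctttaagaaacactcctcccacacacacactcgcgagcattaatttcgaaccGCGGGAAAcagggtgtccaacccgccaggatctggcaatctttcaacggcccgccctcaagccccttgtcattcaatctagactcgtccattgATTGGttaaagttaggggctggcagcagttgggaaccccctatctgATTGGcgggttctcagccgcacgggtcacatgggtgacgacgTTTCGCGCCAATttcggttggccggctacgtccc
Cdc6 (chr11:98907901-98908200, plus strand): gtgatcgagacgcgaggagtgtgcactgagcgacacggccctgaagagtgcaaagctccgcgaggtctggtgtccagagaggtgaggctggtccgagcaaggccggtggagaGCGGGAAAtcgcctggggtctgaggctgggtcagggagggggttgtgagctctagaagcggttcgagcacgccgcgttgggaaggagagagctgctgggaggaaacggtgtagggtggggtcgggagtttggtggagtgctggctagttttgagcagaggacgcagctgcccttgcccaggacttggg
Cdt1 (chr8:122567765-122568064, plus strand): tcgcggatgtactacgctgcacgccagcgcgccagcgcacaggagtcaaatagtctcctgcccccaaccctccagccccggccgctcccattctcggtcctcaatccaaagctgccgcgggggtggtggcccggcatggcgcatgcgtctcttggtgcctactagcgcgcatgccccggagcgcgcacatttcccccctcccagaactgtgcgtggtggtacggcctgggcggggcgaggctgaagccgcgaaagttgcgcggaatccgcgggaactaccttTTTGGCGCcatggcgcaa
Cdk1 (chr10:69352863-69353162, minus strand): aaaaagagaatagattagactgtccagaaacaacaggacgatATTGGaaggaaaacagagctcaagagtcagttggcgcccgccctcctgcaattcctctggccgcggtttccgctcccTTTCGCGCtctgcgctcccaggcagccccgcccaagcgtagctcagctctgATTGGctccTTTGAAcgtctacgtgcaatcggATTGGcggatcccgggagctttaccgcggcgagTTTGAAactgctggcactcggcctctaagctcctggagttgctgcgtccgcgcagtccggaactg
Plk1 (chr7:122159185-122159484, plus strand): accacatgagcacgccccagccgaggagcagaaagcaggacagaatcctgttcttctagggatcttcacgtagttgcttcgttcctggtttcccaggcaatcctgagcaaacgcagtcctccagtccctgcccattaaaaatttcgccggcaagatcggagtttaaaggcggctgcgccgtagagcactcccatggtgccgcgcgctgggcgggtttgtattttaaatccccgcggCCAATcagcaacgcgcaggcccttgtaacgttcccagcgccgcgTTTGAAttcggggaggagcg
Mki67 (chr7:135716330-135716629, minus strand): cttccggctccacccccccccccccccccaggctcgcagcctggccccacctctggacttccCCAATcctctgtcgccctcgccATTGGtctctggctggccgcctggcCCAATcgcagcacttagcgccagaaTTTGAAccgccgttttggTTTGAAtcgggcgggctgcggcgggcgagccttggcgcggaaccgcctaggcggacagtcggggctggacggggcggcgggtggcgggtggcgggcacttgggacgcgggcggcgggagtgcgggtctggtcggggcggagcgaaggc
An E2F word was present in 6 of the 14 G1 to S members with a window (Mcm3, Mcm5, Mcm6, Mcm7, Cdc6 and Cdt1) and in 1 of the 17 mitotic members (Cdk1), against 2.265% of 32851 promoter windows of the same length. The CHR word was present in 1 of 14 G1 to S members (Mcm2) and in 12 of 17 mitotic members, against 17.89% of all windows. CCAAT was present in 8 of 14 and 15 of 17, against 37.41%. Both CHR and CCAAT were present in 13 members, against 6.953% of all windows. The Cdk1 window held all 3 kinds of word, and the Tk1 window held none. In the Mcm7 window an E2F word overlapped a CCAAT in the single run TTTCGCGCCAAT. These are matches of letters, and binding was not measured.

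Depth differed widely between marrow and sorted cells. Library totals ran from 8559897 to 26225431 counts, but protein-coding genes held 0.232% to 0.291% of the counts in BM total libraries and 1.82% to 3.71% in BM polysomal libraries, against 37.3% to 94.6% in sorted cells. Levels are given in CPM, which are counts relative to the effective library size that TMM normalisation assigns. In BM total RNA 1 CPM was worth 0.473 to 0.611 counts, and only 12 to 15 members reached 10 counts in a library. In BM polysomal RNA 28 to 35 members did, and in every sorted library 37. The remaining gene is Kif11, the kinesin that pushes the spindle poles apart (chromosome 19, 37376403 to 37421859), which is listed at 0 in all 18 libraries. Its neighbours March5 and Hhex are listed at 0 too and Ide at 1 count, so no level of Kif11 was read from these data, and 37 members were tested. Of the sort antigens, Ly6c2 was higher in LY6C than in LY6G in every number of both fractions, but Ly6g stood at 1.62, 1.73 and 8.72 CPM in total RNA of LY6G and at 1.84, 4.16 and 4.15 CPM in that of LY6C, so in total RNA it placed LY6G above LY6C in number 6 only. Several members overlap an expressed gene on the other strand: Ccne2 with Ints8 over 5622 bases, Gins2 with Gse1 over 2758, Kif20a with Cdc23 over 2327, Prc1 with Rccd1 over 21810, Ccna2 with Exosc9 over 863 and Mcm7 with Ap4m1 over 421. These lengths are of whole gene spans, introns included. The sources used here give no strand setting for the counts, and without strand the reads from shared exon stretches of such pairs cannot be told apart.

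**Figure D1:**
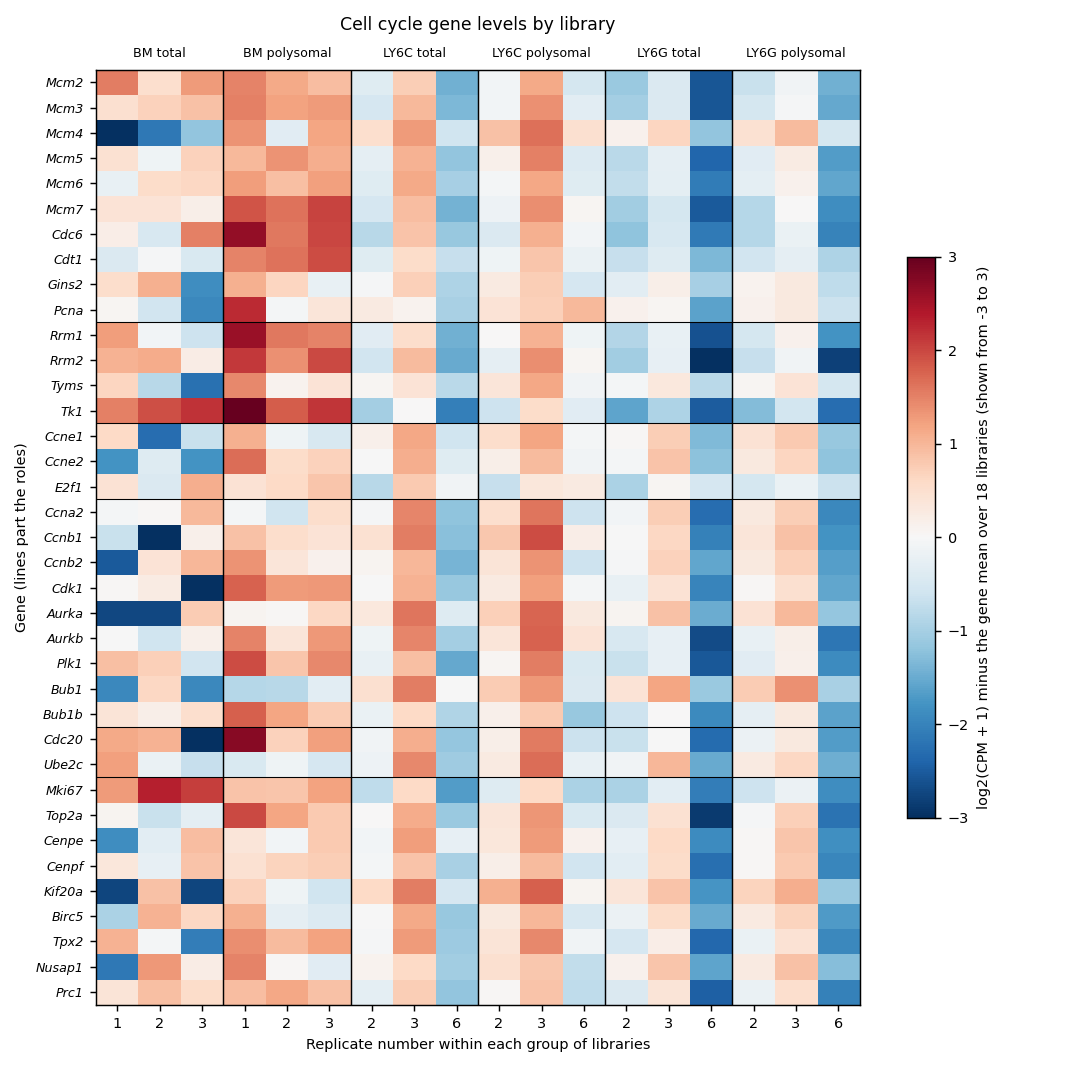
Level of the 37 detected members in the 18 libraries, as log2(CPM + 1) minus the gene's mean over all libraries, with colour limits at −3 and 3 and lines between roles. Within each sorted group the column of number 3 is highest for at least 36 of the 37 members, and that of number 6 is lowest for at least 30.

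Cell cycle mRNA made up a larger part of protein-coding counts in marrow than in either sorted population. The 38 genes held 0.825% ± 0.0499 of these counts in BM total RNA and 0.891% ± 0.172 in BM polysomal RNA, as mean ± SD over 3 libraries. For LY6C the share was 0.345% ± 0.260 of total and 0.406% ± 0.258 of polysomal counts, and for LY6G 0.214% ± 0.146 and 0.254% ± 0.159. The highest sorted library reached 0.691% and the lowest BM library 0.738%, so with Mki67 included the shares of marrow and sorted cells did not overlap. On the CPM scale they did: the members summed to 893, 1075 and 1018 CPM in BM and 491, 1135 and 244 CPM in LY6C total RNA, and to 1837, 1172 and 1351 CPM in BM and 633, 1366 and 499 CPM in LY6C polysomal RNA, with number 3 of LY6C above every BM total library and above BM polysomal libraries 2 and 3. Mki67 alone held 117, 311 and 208 of the 422, 657 and 493 member counts in the BM total libraries. Without it, the share of number 3 in LY6C total RNA fell within the range of BM total RNA. The sums of total RNA without Mki67 were 599.9 ± 40.9 CPM in BM and 543 ± 396 CPM in LY6C (mean ± SD). In bulk RNA, fewer dividing cells and less of these mRNAs per cell cannot be told apart.

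Compared per kilobase of exon, the member with the highest mean differed between marrow and sorted cells. Lengths are those of all annotated exons of a gene joined, not of the mRNA present, so ranks between genes depend on the annotation. Pcna, the sliding clamp of DNA polymerases, had the highest mean level of the members in all 4 sorted groups, with 13.3 CPM per kb in total and 23.8 in polysomal RNA of LY6C, and 11.7 and 14.1 in LY6G. In BM polysomal RNA Rrm2, the small subunit of ribonucleotide reductase, led with 38.1 ± 9.89 CPM per kb (mean ± SD), followed by Pcna at 33.9 ± 31.0. The order of these genes was not the same in every library. Pcna was above Rrm2 in BM polysomal library 1, and Rrm2 was above Pcna in number 3 of LY6C in both fractions. In BM total RNA Mki67, which encodes the Ki-67 protein of mitotic chromosomes, led with 39.3 CPM per kb, followed by Rrm2 at 18.6. Tk1, the thymidine kinase of the salvage pathway, was the lowest detected member per kilobase in LY6G, at 0.370 CPM per kb in total and 0.507 in polysomal RNA.

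Polysomal RNA gives the deeper view of marrow, and there LY6G stood below BM for most members. Of 37 tested members 12 were called lower in LY6G and 0 higher, at an adjusted p under 0.05, where 15.3% of all 14181 tested genes were called lower and 22.1% higher. The median log2 difference was −1.33 over the members and 0.45 over all genes. Many of the 14181 genes passed the count filter in sorted libraries with few counts in BM. At least 10 counts were reached by 5226 to 7371 genes in a BM polysomal library and 1475 to 2018 in a BM total library. In a sorted library 10571 to 13832 genes did. The medians and shares of all genes against BM, here and below, are thus no neutral background. The called genes were mostly of the G1 to S and DNA synthesis group, with 10 of its 17 members called lower, against 2 of 20 mitotic members (Bub1b and Mki67). All 17 G1 to S differences were negative, as were 15 of the 20 mitotic ones, and the difference between the roles was not tested. In 20 members all 3 LY6G libraries lay below all 3 BM libraries, as in 19.5% of all genes, and in 0 members above them (41.1% of all genes). The count of 12 depended on single libraries: it was 4 without number 2 of the sorted cells, 6 without the LY6G polysomal library of number 2 or of number 6, 7 without BM polysomal library 1 and 18 without number 3.

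Deoxynucleotide synthesis held the largest difference. Tk1 was at 67.6, 28.9 and 36.5 CPM in BM polysomal RNA and at 2.43, 4.73 and 0.744 CPM in that of LY6G. All LY6G libraries lay far below the lowest BM library, and the log2 difference was −4.08 ± 0.79 (SE, adjusted p = 0.000703). Rrm2 was at 127, 74.5 and 116 CPM in BM and at 17.2, 26.3 and 3.19 CPM in LY6G, without overlap, a log2 difference of −2.77 ± 0.84 (adjusted p = 0.0165). Rrm1, the large subunit of the same enzyme, was at 160.2, 79.2 and 75.1 CPM in BM and 17.8, 28.5 and 6.73 CPM in LY6G, again without overlap (−2.57 ± 0.70, adjusted p = 0.00823). The remaining gene of the group, the thymidylate synthase gene Tyms, was at 11.7, 4.04 and 5.27 CPM in BM and 3.88, 5.25 and 2.23 CPM in LY6G, where the groups overlapped and no call was made (−0.93 ± 0.58, adjusted p = 0.211).

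Both loaders of the MCM helicase, Cdc6 and Cdt1, were called lower. Cdc6 was at 50.2, 23.7 and 32 CPM in BM polysomal RNA and 3.59, 6.17 and 1.06 CPM in LY6G (log2 difference −3.30 ± 0.79, adjusted p = 0.00337). Cdt1 was at 34.8, 38.1 and 48.1 CPM in BM and 7.49, 9.55 and 5.68 CPM in LY6G (−2.41 ± 0.41, adjusted p = 0.000132). Neither gene's groups overlapped, and Cdt1 had the lowest adjusted p of the members. Of the 6 subunits of the helicase, Mcm7 was at 83.2, 69.3 and 91.7 CPM in BM and 11.7, 21.9 and 5.30 CPM in LY6G (−2.65 ± 0.66, adjusted p = 0.00441). Mcm3 (−1.96 ± 0.63), Mcm2 (−1.93 ± 0.63) and Mcm6 (−1.59 ± 0.59) were called as well, Mcm6 in 8 of 15 other settings. Mcm5 was not called: its 61, 78.6 and 66 CPM in BM and 23.8, 36 and 8.80 CPM in LY6G did not overlap, with a log2 difference of −1.58 ± 0.65 (adjusted p = 0.0649). For Pcna, 167, 32.9 and 44.2 CPM in BM and 37.8, 42.2 and 21.7 CPM in LY6G overlapped, since only BM library 1 stood high (−1.27 ± 0.58, adjusted p = 0.0898). E2f1, an activating E2F factor, was at 12.8, 14.4 and 17.2 CPM in BM and 6.06, 7.93 and 5.52 CPM in LY6G, a log2 difference of −1.19 ± 0.46 (adjusted p = 0.0475) that was called in 3 of 15 other settings.

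Mitotic genes were more mixed. Mki67 was at 183, 181 and 233 CPM in BM polysomal RNA and at 64.8, 89.6 and 27 CPM in LY6G, without overlap (log2 difference −1.72 ± 0.57, adjusted p = 0.0244). Bub1b, the gene of the spindle checkpoint protein BubR1, was at 52.5, 34.1 and 24.9 CPM in BM and 11.8, 18 and 4.09 CPM in LY6G (−1.72 ± 0.61, adjusted p = 0.0331). Both were the called members of this role. Plk1, Polo-like kinase 1, was at 40.5, 17.9 and 27.7 CPM in BM and 7.40, 10.8 and 1.88 CPM in LY6G (−2.11 ± 0.84, adjusted p = 0.0595). Cdk1, the kinase that drives entry into mitosis, was at 30.2, 21.4 and 21.8 CPM in BM and 8.42, 11.9 and 2.13 CPM in LY6G (−1.72 ± 0.76, adjusted p = 0.0875). Top2a, the topoisomerase that untangles chromosomes, was at 222, 128 and 96.9 CPM in BM and 54.6, 91.9 and 11.2 CPM in LY6G (−1.50 ± 0.81, adjusted p = 0.155). These 3 genes did not overlap between the groups, but none was called. Ccnb1, cyclin B1, overlapped, with 14.3, 11 and 10.2 CPM in BM and 9.75, 14.4 and 1.42 CPM in LY6G (−0.48 ± 0.93, adjusted p = 0.703). Fitted differences above 0 were given by 5 mitotic members, Bub1, Ube2c, Kif20a, Aurka and Ccna2, none of them called.

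**Figure D2:**
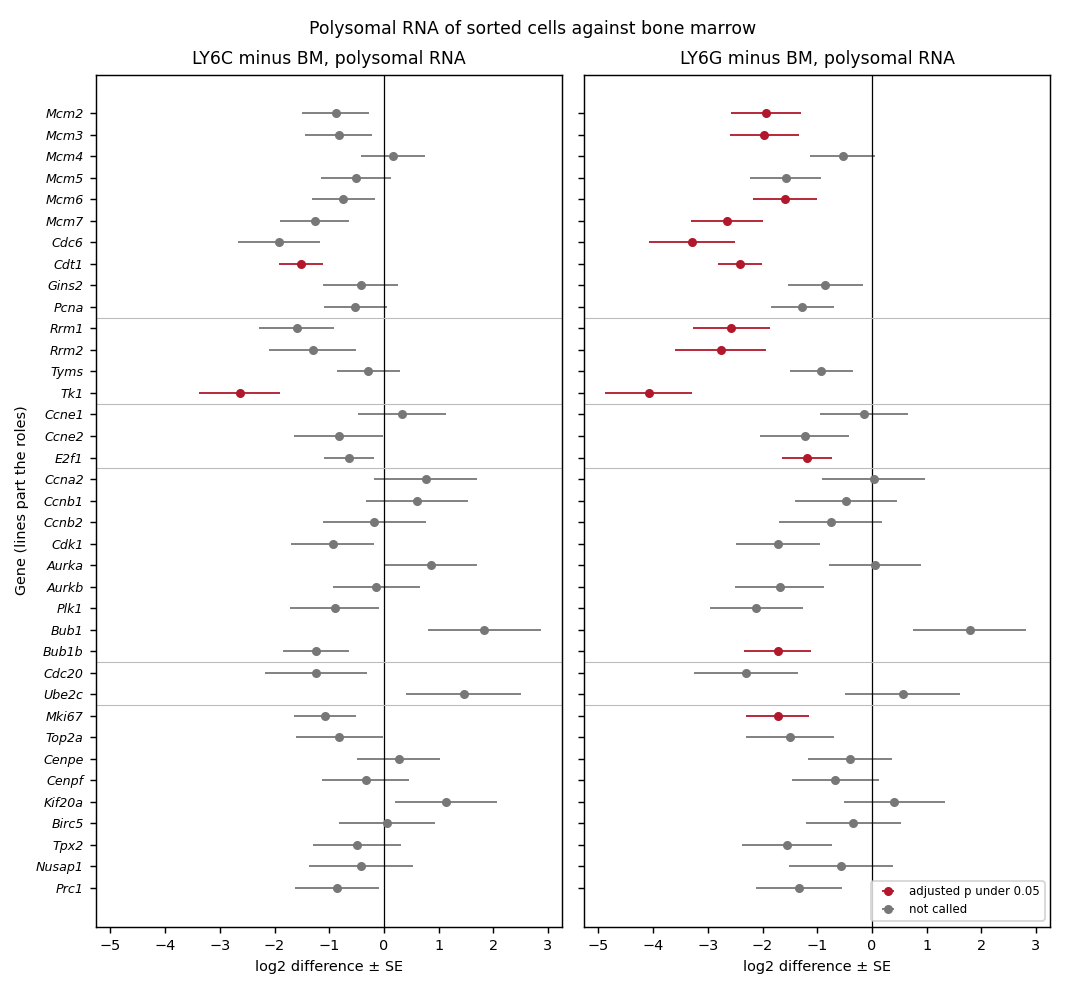
Log2 difference ± SE of each tested member between LY6C and BM and between LY6G and BM in polysomal RNA, with lines between roles. Red points have an adjusted p under 0.05: there are 2 for LY6C and 12 for LY6G, with Tk1 lowest in both.

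In LY6C polysomal RNA 2 members were called lower than BM and 0 higher, against 11.2% and 20.2% of all genes. Tk1 was at 4.51, 11.3 and 5.63 CPM in LY6C, a log2 difference of −2.64 ± 0.75 (adjusted p = 0.0123). Cdt1 was at 10.7, 21.6 and 10.1 CPM, a difference of −1.51 ± 0.40 (adjusted p = 0.00662). These are also the members with the lowest adjusted p in LY6G. The member median was −0.52 and that of all genes 0.52. In 9 members all LY6C libraries lay below BM (14% of all genes), namely Mcm7, Cdc6, Cdt1, Rrm1, Tk1, E2f1, Cdk1, Mki67 and Prc1, and in 0 above it (34.7%). Among the genes that overlapped BM, Rrm2 was at 23.4, 75.8 and 29.5 CPM, Mcm5 at 34.2, 88 and 22.6 CPM, Plk1 at 10, 29.7 and 6.72 CPM and Tyms at 5.04, 9.41 and 3.34 CPM. Number 3 was the highest LY6C library of each. Without number 2 of the sorted cells, or its LY6C polysomal library alone, 1 member was called. Without the LY6C polysomal library of number 3 there were 4, without all of number 6 there were 5, and without all of number 3 there were 11.

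Total RNA was compared at a much lower depth in marrow, and there Mki67 and Tk1 led. Mki67 was at 248, 509 and 429 CPM in BM, at 59.3, 152 and 30.9 CPM in LY6C and at 51.3, 80.5 and 23.2 CPM in LY6G. Tk1 was at 23.3, 31.1 and 37.2 CPM in BM, at 3.16, 7.59 and 1.04 CPM in LY6C and at 1.82, 3.44 and 0.508 CPM in LY6G. For both genes neither sorted group overlapped BM. In LY6C the log2 differences from BM were −2.29 ± 0.59 for Mki67 and −2.98 ± 0.83 for Tk1 (adjusted p = 0.00682 and 0.0127). In LY6G they were −2.94 ± 0.60 and −3.99 ± 0.85 (adjusted p = 0.00111 and 0.00185). Mcm2 (55, 26.2 and 45.4 CPM in BM and 7.95, 13.3 and 2.24 CPM in LY6G) and Mcm3 (42.3, 49.1 and 55.7 and 14.2, 22.1 and 4.28 CPM) were called lower in LY6G as well, by −2.42 ± 0.69 and −1.86 ± 0.66 (adjusted p = 0.012 and 0.0407). That made 4 members called lower and 0 higher in LY6G (9.39% and 21.5% of all genes), and 2 lower and 1 higher in LY6C (7.4% and 20.5%). All LY6G libraries lay below BM in 10 members and above it in 0 (8.45% and 54.2% of all genes), and all LY6C libraries lay below it in 2 and above it in 2 (6.14% and 48.5%). Without number 2 of the sorted cells 0 members were called in LY6C, and without number 3 10 were called in LY6G.

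The gene called higher in LY6C total RNA was Mcm4, which had 3 counts over the BM total libraries. Its ratio of pooled levels, LY6C over BM, was 8.05 with a 95% counting interval of 2.75 to 39.1, and the call was made in 6 of 15 other settings. With median-ratio factors or protein-coding library sizes the LY6C calls were 2 lower and 0 higher. The median over all genes was 1.64 in LY6C and 1.63 in LY6G total RNA, and the member medians were −0.16 and −0.72. An upward offset of the scale and the many genes with few counts in BM cannot be told apart here. The all-gene medians were 1.36 and 1.49 with median-ratio factors and 1.07 and 1.04 with protein-coding library sizes. DESeq2 gave 0.03 and 0.16 over all genes, with member medians of −0.51 and −0.88. In BM total RNA Cdk1 was at 8.46, 9.81 and 0 CPM and Ccnb1 at 4.23, 0 and 8.26 CPM, on 0 to 6 counts in a library, and neither was called in LY6C or LY6G. Rrm2 (59.2, 62.2 and 33 CPM in BM and 13.2, 23.8 and 2.66 CPM in LY6G) and Mcm5 (42.3, 27.8 and 49.6 and 17, 25 and 5.02 CPM) did not overlap and were not called.

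Markers of other cell types differed between the same groups. The 13 erythroid markers summed to 651 to 1373 CPM in BM and to 0.640 to 7.77 CPM in the 12 sorted libraries, with Rhag at 0 in 3 of the 4 sorted groups. The 10 B lineage markers summed to 66.1 to 110.4 CPM in BM and 0.183 to 6.84 CPM in sorted cells, with Cd79b and Ms4a1 at 0 in BM total RNA. The 8 markers of stroma and endothelium summed to 2002 to 6827 and 8.14 to 52.8 CPM. Most of this sum came from Col1a1 and Col1a2, at 2050 and 603 of 2710 CPM in BM total library 1. The endothelial gene Kdr was higher in number 6 of LY6C, at 19.0 CPM in total and 41.3 CPM in polysomal RNA, than in BM (0 to 8.26 CPM). As sums, these 3 lists were thus higher in every BM library than in any sorted one. The 10 monocyte and macrophage markers ran the other way, at 97 to 189 CPM in BM and 744 to 2363 CPM in sorted cells. Stem and progenitor markers (4.23 to 35.1 CPM in BM, 4.90 to 11.2 CPM in sorted cells) and megakaryocyte and platelet markers (121 to 268 and 16.1 to 370.0 CPM) overlapped. The part of these cell types in the differences of the cell cycle genes was not tested.

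**Figure D3:**
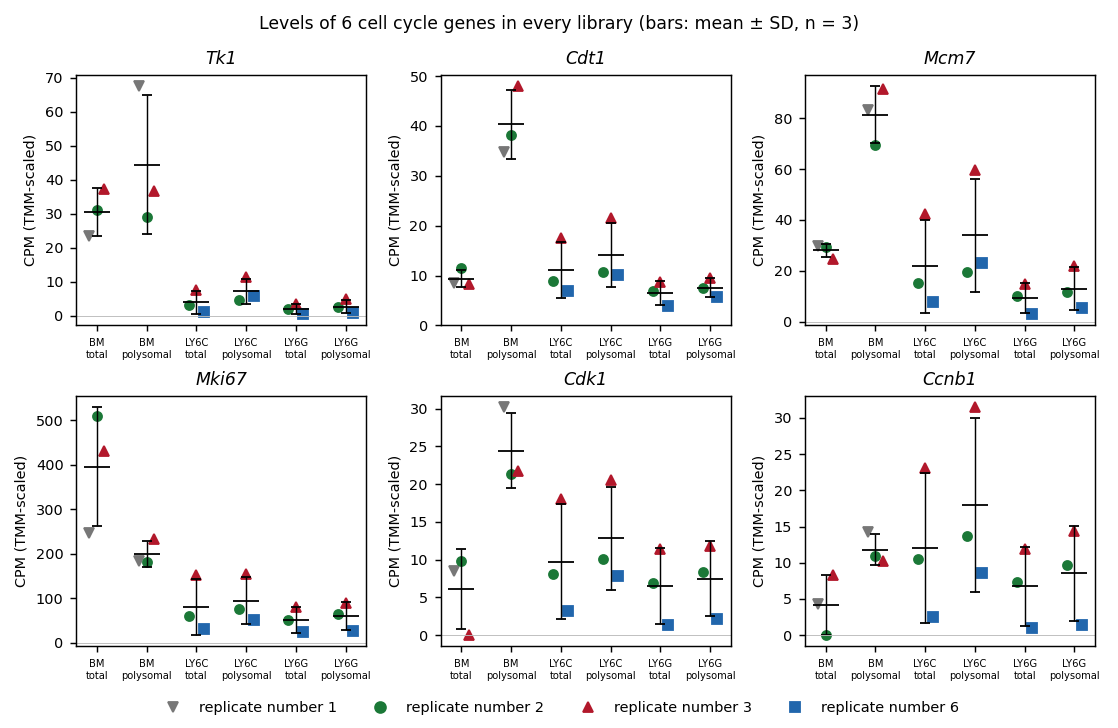
CPM of 6 members in each library, with the mean ± SD of each group (n = 3). Mean levels of Tk1, Cdt1, Mcm7 and Cdk1 are highest in BM polysomal RNA and that of Mki67 in BM total RNA, and in each sorted group the red triangle of number 3 is highest for all 6 genes.

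Within the sorted cells, the replicate number went with the level of nearly all members. In all 4 sorted groups at once, number 3 was above number 2 and number 2 above number 6 for 30 of 37 members, which held for 4.16% of all genes. The exceptions were Aurkb, Cdc6, E2f1, Mcm7, Pcna, Rrm2 and Tk1. The median member ratio of number 3 to number 6 was 5.01 in LY6C total RNA and 3.08 in LY6C polysomal RNA, and it was 7.84 and 6.1 in these fractions of LY6G. Over all genes the medians were 0.972 to 1.03. The ratio reached 14.7 for Nusap1, a spindle protein gene, in LY6G total RNA, and was smallest for E2f1 in 3 of the 4 groups.

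Top2a was at 55.6, 122 and 25.2 CPM in LY6C and 41.1, 76.6 and 6.79 CPM in LY6G total RNA for numbers 2, 3 and 6, and at 72.2, 141 and 40.4 and 54.6, 91.9 and 11.2 CPM in polysomal RNA. Ccnb1 was at 10.6, 23.1 and 2.49 CPM in LY6C and 7.34, 11.9 and 1.04 CPM in LY6G total RNA. Plk1 was at 8.11, 19.1 and 2.70 CPM in LY6C and 5.68, 7.98 and 0.823 CPM in LY6G total RNA. In each, number 3 was the highest library and number 6 the lowest, and Cdk1 (8.06, 18 and 3.16 CPM in LY6C and 6.90, 11.3 and 1.33 CPM in LY6G) had the same order. E2f1 did not, since number 2 was its lowest library in total RNA of both LY6C (4.72, 16.5 and 8.43 CPM) and LY6G (4.32, 9.70 and 6.24 CPM). Pcna was highest in number 2 in total RNA of LY6C (41.8, 36.9 and 17.1 CPM) and LY6G (37.5, 36.1 and 10.5 CPM).

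Other measures moved with the number. The 6 primary granule genes found (Mpo, Elane, Prtn3, Ctsg, Ms4a3 and Prss57), which mark neutrophil precursors, summed to 41.4, 347 and 11 CPM in LY6C and 24.2, 33.3 and 7.30 CPM in LY6G total RNA, and to 51.4, 453 and 27.2 and 32.3, 39.3 and 17 CPM in polysomal RNA. Number 3 was thus highest and number 6 lowest here too, none of the genes was at 0 in a group, and BM held 114 to 283 CPM. The 10 neutrophil maturation genes summed to 1424, 3397 and 723 CPM in LY6C and 1152, 1231 and 832 CPM in LY6G total RNA, against 696 to 724 CPM in BM total RNA. In LY6C total RNA the genes were divided. Ltf (159, 1201 and 129 CPM), Camp, Ngp, Retnlg, S100a8 and S100a9 were highest in number 3. Mmp8 (297, 66.4 and 90.3 CPM), Lcn2, Mmp9 and Cxcr2 were lowest in it. In polysomal RNA the 10 genes summed to 1478, 4287 and 2025 CPM in LY6C, with number 3 highest, and to 1336, 1390.1 and 1435 CPM in LY6G, with number 6 highest. BM polysomal RNA held 1695 to 2518 CPM, which was above every LY6G polysomal library and overlapped LY6C. The monocyte and macrophage markers were lowest in number 3 in LY6C total RNA (1937, 744 and 1321 CPM) and highest in it in LY6G total RNA (1632, 1812 and 1349 CPM). In polysomal RNA number 3 was lowest in LY6C (2065, 957 and 2363 CPM) and number 6 highest in LY6G (1815, 1998 and 2253 CPM). The part of these cells in the order of the members was not tested. Mitochondrial ribosomal RNA took 1.66%, 30.6% and 24% of counts in LY6C total RNA and 3.22%, 18.8% and 13.2% in LY6G total RNA, with number 2 lowest in both.

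Fitted levels of nearly every member were lower in LY6G than in LY6C, but no member was called. The medians moved most where a single library was left out of 1 group, which breaks the pairing by number. In total RNA 36 of 37 differences were negative with a median of −0.66 (0.0 over all genes), and in polysomal RNA 37 of 37 with a median of −0.75 (−0.03 over all genes). With median-ratio factors 35 were negative in each fraction. Without the LY6C total library of number 3 the median was 0.003 with 18 negative, and without the LY6G total library of number 6 it was −0.24 with 27 negative. Without the LY6C polysomal library of number 3 it was −0.21 with 27 negative, and without the LY6G polysomal library of number 6 it was −0.38 with 31 negative. Leaving out all sorted libraries of 1 number gave −0.83 to −0.57 in total and −0.92 to −0.58 in polysomal RNA, with 36 or 37 negative. By edgeR's quasi-likelihood test 0 members and 0% of all genes were called in either fraction and direction. At an unadjusted p under 0.05 there were 0 members in total RNA and 2 in polysomal RNA (Mcm7 and Cdt1), and DESeq2 called 0 in both. These standard errors and p-values come from a fit without pairing, although the numbers pair the sorted groups. With the replicate number as a block 0 members were called too. The medians were then −0.77 in total and −0.91 in polysomal RNA with 37 of 37 negative in both, and 24 and 30 members had an unadjusted p under 0.05, as had 1623 and 2222 of all 14181 genes. Compared number by number, LY6G was below LY6C in every number for 35 of 37 members in total RNA (19.6% of all genes) and for 32 in polysomal RNA (22.2%), and above it in every number for 0 members in both (19.3% and 19.5%). The exceptions were Nusap1 and Ube2c in both fractions, with Bub1, Ccne2 and E2f1 in polysomal RNA. Without pairing, the groups did not overlap for 0 members in total RNA (7.04% of all genes higher and 5.28% lower) and for 3 in polysomal RNA, all lower (Cdt1, Pcna and Aurkb, against 7.05% lower and 7.74% higher).

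The gap differed between numbers and was widest in number 6. The median LY6G over LY6C ratio of the members was 0.765, 0.592 and 0.392 in total RNA for numbers 2, 3 and 6, and 0.77, 0.564 and 0.313 in polysomal RNA. Aurkb, the kinase of the chromosomal passenger complex, had the largest log2 difference in both fractions. It was at 9.01, 10.7 and 1.17 CPM in LY6G and 11.8, 37.4 and 5.90 CPM in LY6C total RNA (−1.39 ± 0.80), and at 10.9, 14.7 and 2.08 and 17, 46.5 and 17.4 CPM in polysomal RNA (−1.54 ± 0.80, adjusted p = 0.842). It was followed by Cdc6 in total RNA (−1.26 ± 0.73) and by Rrm2 in polysomal RNA (−1.46 ± 0.80). With the block, Aurkb differed by −1.42 in total (adjusted p = 0.255) and −1.87 in polysomal RNA (adjusted p = 0.131), Cdc6 by −1.18 (adjusted p = 0.267) and Rrm2 by −1.81 (adjusted p = 0.131). Tyms and Pcna had small differences in total RNA, at −0.10 ± 0.54 and −0.19 ± 0.56.

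**Figure D4:**
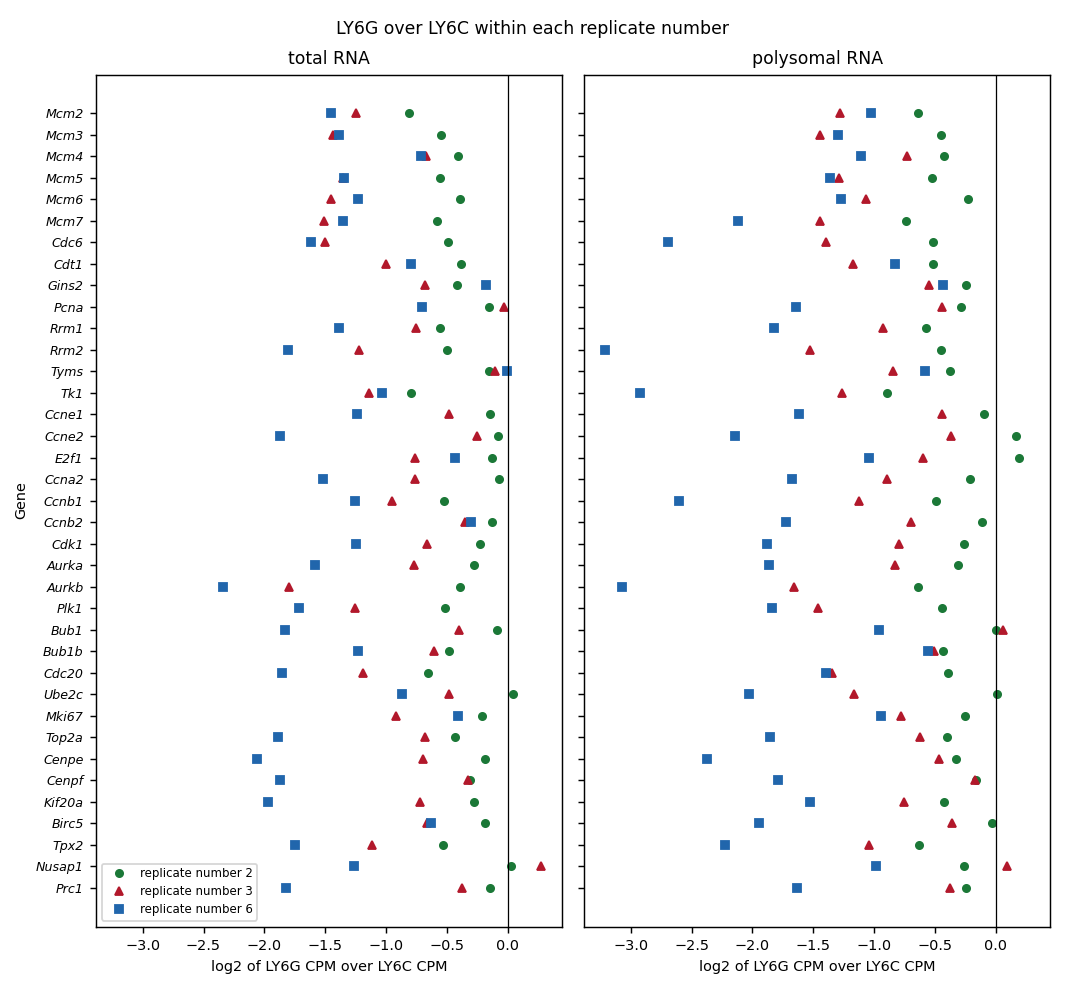
Log2 of the LY6G level over the LY6C level (CPM) within each replicate number, for total and polysomal RNA. For 35 members in total and 32 in polysomal RNA all 3 points lie below 0, where LY6G is lower, and the median ratio is lowest for the blue squares of number 6.

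In sorted cells most fitted differences of polysomal minus total RNA were above 0, but no member was called. The direction turned where some single libraries were left out, which breaks the pairing by number. It did not turn with whole numbers left out or with the replicate number as a block. In LY6C 35 of 37 differences were positive with a median of 0.40 (0.01 over all genes), and in LY6G 35 with a median of 0.31 (0.0 over all genes). Without the LY6C polysomal library of number 3 the LY6C median was −0.23 with 32 negative, without the total library of number 6 it was −0.04 with 21 negative, and without the total library of number 3 it was 1.03 with 0 negative. Without the LY6G polysomal library of number 3 the LY6G median was −0.23 with 29 negative, without the total library of number 6 it was −0.14 with 30 negative, and without the total library of number 3 or the polysomal library of number 6 it was 0.97 or 0.76 with 0 negative. Leaving out all sorted libraries of 1 number gave 0.26 to 0.56 in LY6C and 0.30 to 0.41 in LY6G. With the block the medians were 0.51 with 1 negative and 0.36 with 0 negative, 13 and 3 members had an unadjusted p under 0.05 (1186 and 774 of all genes), and 0 were called. By edgeR's quasi-likelihood test 0 members and 0% of all genes were called in either. Without the block there were 0 members at an unadjusted p under 0.05 in both, and DESeq2 called 0. Polysomal RNA was above total RNA in every number for 32 of 37 members in LY6C and 31 in LY6G (25.2% and 28.3% of all genes), and below it in every number for 0 in both (17.9% and 25.3%). Birc5, Ccne2 and E2f1 were exceptions in both. Without pairing, the groups did not overlap for 1 member in LY6C, Pcna, which was higher (3.67% of all genes, with 4.1% lower), and for 0 in LY6G (8.52% higher and 9.06% lower). The largest log2 differences were those of Tk1 (0.88 ± 0.72) and Pcna (0.84 ± 0.57) in LY6C, and of Mcm3 (0.55 ± 0.61) and Mcm5 (0.55 ± 0.63) in LY6G. E2f1 was at −0.04 ± 0.44 in LY6C and −0.05 ± 0.43 in LY6G.

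In marrow the polysomal level was above the total level for 32 of 37 members, with a median log2 difference of 1.0 against 0.55 over all genes. With median-ratio factors 11 members were below 0, and the medians were 0.57 and 0.13. Cdt1 alone was called, at 8.46, 11.4 and 8.26 CPM in total and 34.8, 38.1 and 48.1 CPM in polysomal RNA (log2 difference 2.09 ± 0.51, adjusted p = 0.0305), where 2.6% of all genes were called higher and 0.797% lower. The call was made in 3 of 12 other settings and in none of the fits that left out a BM library. Polysomal libraries lay above total libraries for 15 members (19.5% of all genes), 10 of them G1 to S genes, and below them for 1 (1.84%). That member was Mki67, with 248, 509 and 429 CPM in total and 183, 181 and 233 CPM in polysomal RNA (−0.99 ± 0.57, adjusted p = 0.358). The summed CPM of G1 to S members over that of mitotic members was 0.664 ± 0.218 in BM total and 1.26 ± 0.0690 in BM polysomal RNA, and without Mki67 it was 1.80 ± 0.125 and 1.86 ± 0.174. Without Mki67 it was 1.17 ± 0.125 and 1.35 ± 0.392 in LY6C, and 1.31 ± 0.590 and 1.40 ± 0.720 in LY6G, with number 6 the highest library of each sorted group.

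The difference of polysomal minus total RNA was also compared between kinds of cells, and 0 members were called in each of the 3 comparisons. Of all genes 0% were called for LY6G against LY6C, 0.0846% higher and 0.254% lower for LY6C against BM, and 0.0987% higher and 0.317% lower for LY6G against BM. At an unadjusted p under 0.05 there were 0, 2 and 2 members, and DESeq2 called 0 in each. Ccne2, cyclin E2, and Mcm4 had the largest differences against BM, at −3.26 ± 2.04 and −2.93 ± 1.27 for LY6C and −3.31 ± 2.03 and −3.04 ± 1.26 for LY6G, but they had 1 and 3 counts in all of BM total RNA. Between LY6G and LY6C the largest were those of Pcna (−0.56 ± 0.80) and Tyms (−0.54 ± 0.76).

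**Figure D5:**
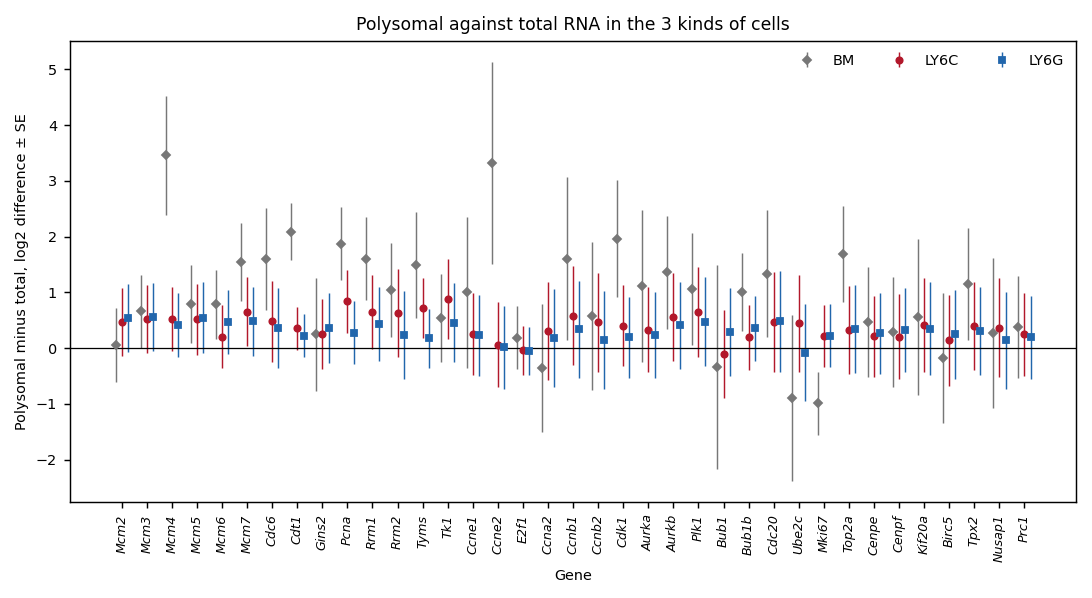
Log2 difference ± SE of polysomal minus total RNA for each tested member in BM (grey), LY6C (red) and LY6G (blue). The points of LY6C and LY6G lie above 0 for 35 of 37 members each, and those of BM run from −0.99 for Mki67 to 3.45 for Mcm4.

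Genes that restrain or accompany the members were read from 8 further lists, of which 134 genes were tested. Against BM, 14 were called higher and 39 lower in LY6G polysomal RNA, where 22.1% and 15.3% of all tested genes were. In LY6C polysomal RNA 12 and 16 were called higher and lower (20.2% and 11.2% of all genes), in LY6G total RNA 11 and 22 (21.5% and 9.39%), and in LY6C total RNA 11 and 12 (20.5% and 7.4%). Between LY6G and LY6C, edgeR called 0. Among the 7 CDK inhibitor genes, Cdkn1a, which encodes p21, was at 3.71, 2.31 and 2.46 CPM in BM polysomal RNA, 182, 106 and 522 CPM in LY6C and 148, 134 and 184 CPM in LY6G. It was far higher in every sorted library, with log2 differences of 6.54 ± 0.59 and 5.75 ± 0.58. In BM total RNA it had 0 counts. Against 3 counts over the group it was at least 73.3-fold higher in LY6C and at least 67.2-fold higher in LY6G on the TMM scale. These bounds cover counting error only, and the total RNA scale may be offset upward. Cdkn2c, which encodes p18, ran the other way, with 40.5, 49.1 and 54.1 CPM in BM polysomal RNA, 7.31, 13 and 5.17 CPM in LY6C (−2.49 ± 0.79, adjusted p = 0.0239) and 4.0, 5.63 and 0.889 CPM in LY6G (−3.77 ± 0.83, adjusted p = 0.00211). It was called lower in total RNA of both populations too (−2.97 ± 0.84 and −4.39 ± 0.89). Cdkn1b, which encodes p27, was called higher in total RNA of both (2.37 ± 0.61 and 2.0 ± 0.62) on 1, 1 and 2 counts in BM. In polysomal RNA of both, Cdkn1c was called lower and Cdkn2b higher, with mean levels of 2.74 and 0 CPM in BM, while Cdkn2a and Cdkn2d were called in no comparison with BM.

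The other lists are described for LY6G against BM in polysomal RNA, where 15.3% of all genes were called lower and 22.1% higher. Of 8 G1 cyclin and kinase genes, the cyclin D genes Ccnd2 (18.1 CPM in BM and 66.2 CPM in LY6G, 1.87 ± 0.36) and Ccnd1 (1.76 ± 0.63) rose, and the kinase gene Cdk4 fell (−1.25 ± 0.36). Of 34 origin, polymerase and clamp-loader genes 9 were called lower and 4 higher. The DNA ligase gene Lig1 (86 CPM in BM and 9.94 CPM in LY6G, −3.11 ± 0.61), the DNA polymerase delta gene Pold1 (−2.84 ± 0.48) and the dUTPase gene Dut (−2.16 ± 0.82) fell, and the clamp-loader gene Rfc1 rose (2.55 ± 0.55). Of 19 E2F, RB and MuvB regulators 5 were called lower and 0 higher, among them the E2F partner Tfdp2 (−3.75 ± 0.52), Mybl2, which encodes B-MYB (−2.09 ± 0.71), and E2f6 (−2.06 ± 0.44).

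Of 23 condensin, cohesin and kinetochore genes 10 were called lower and 0 higher, among them Spc24 (−3.50 ± 1.06), Incenp (−2.45 ± 0.47) and Ncaph (−2.19 ± 0.77). Of 19 cytokinesis and spindle genes 4 were called lower and 0 higher, led by the tubulin-binding gene Stmn1, at 162 CPM in BM and 7.77 CPM in LY6G (−4.38 ± 1.01). Of 12 tested checkpoint genes 6 were called lower, among them Wee1 (−2.92 ± 0.73), Cdc25a (−2.84 ± 0.67) and Chek1 (−2.82 ± 0.65), and 2 higher, among them Atm (1.19 ± 0.35). Of 12 antiproliferative genes 4 were called higher and 2 lower. The stress-response gene Gadd45b (3.87 ± 0.55), the p53 target Ccng1 (3.78 ± 0.43) and Btg1 (2.57 ± 0.38) rose, and Ccng2 (−2.80 ± 0.35) and Mxd1 (−1.0 ± 0.31) fell.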

How the data were processed

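Total and polysomal RNA of LY6C, LY6G and BM cells were sequenced in 18 libraries from stranded, rRNA-depleted total RNA kits, per the labels' protocols. The authors deposited raw counts per Ensembl gene and library. FastQC, STAR 2.5.2a, DESeq, DESeq2 and build GRCm38 (mm10) are named in the submitters' processing notes. No counting program, annotation or strand setting is named in the sources used here. GENCODE M21 named 54809 of 54838 identifiers.

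The counts were tested with edgeR 4.0.16 in R 4.3.3: robust quasi-likelihood fit with TMM, genes kept by filterByExpr at a minimum count of 10 (14181 genes), 6 group means over all 18 libraries, 12 comparisons, and Benjamini-Hochberg adjustment over all genes, with calls at an adjusted p under 0.05. The fit was tested on simulated counts with the real library sizes, drawn independently around the same mean in all groups apart from the changed genes. That simulation held no pairing by number and no general difference of marrow from sorted cells. The series states independent biological replicates. Each group had 3 libraries. Counting intervals are exact at 95% and cover counting error only. Totals ranged from 8559897 to 26225431 counts.

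The members and lists were chosen with earlier results of these data known. Values are named for Mki67, Top2a, Ccnb1, Cdk1, Plk1, Mcm5, Pcna, Rrm2, Tyms and E2f1 whatever they were, for at most 8 called members per direction, for the 2 largest where none was called, for the CDK inhibitors, and for at most 3 called genes per list and direction whose highest group averaged 10 CPM or more. Others named (Mcm6 and Bub1b, and the exceptions to counts) were chosen after their values were seen. Alternatives were DESeq2 1.42.0, median-ratio factors, protein-coding library sizes, no filter, the compared libraries alone, a replicate block and leaving out libraries.

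Replicate numbers were checked by the correlation of deviations from group means over 8833 genes. It was 0.227 to 0.868 for same-numbered sorted libraries, above the limit of 0.1, so numbers 2, 3 and 6 pair the sorted groups. No pairing of BM with sorted cells was seen (−0.0325 to 0.0346), and BM was fitted unpaired. Only 1475 to 2018 genes reached 10 counts in a BM total library, so the check could miss a pairing of BM.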

Additional observations from a re-analysis of the deposited data

Results flagged for a closer look

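The levels of Mki67 went opposite ways between total and polysomal RNA in marrow and in sorted cells, by small margins in some sorted libraries. In BM every polysomal library was below every total library, while in LY6C and in LY6G the polysomal level was above the total level in each of numbers 2, 3 and 6. The polysomal over total ratios were 1.30, 1.01 and 1.68 in LY6C and 1.26, 1.11 and 1.16 in LY6G. The difference of polysomal minus total RNA was 1.21 ± 0.80 higher (log2, SE) in LY6C than in BM (adjusted p = 0.54) and 1.22 ± 0.80 higher in LY6G than in BM (adjusted p = 0.53). The interaction test of edgeR did not pass in either comparison, and both share the BM libraries.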

How the results depend on the processing

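All counts here are of called members. With a replicate block there were 7 in total and 10 in polysomal RNA for LY6C against BM, 9 in total and 17 in polysomal RNA for LY6G against BM, and 6 for polysomal against total RNA of BM. The member medians of LY6C against BM changed sign with the block, from −0.16 to 0.34 in total and from −0.52 to 0.21 in polysomal RNA. For sorted cells against BM this block joined BM and sorted libraries of the same number. The check showed no pairing of these (correlations of −0.0325 to 0.0346), but it could miss one at the depth of BM. No conclusion is drawn from those counts and medians. Between the fractions of BM the numbers were not paired by the check either (correlations of 0.0284 to 0.0394). Each of the 6 BM libraries still correlated best with its own number, so the count for polysomal against total RNA of BM is only a hint. Between sorted groups, where the numbers pair, the block changed no call and 0 members were called. DESeq2 gave 7 for LY6G against BM in total RNA and 0 for BM polysomal against total RNA, as did median-ratio factors (0). Protein-coding library sizes gave 4, and the compared libraries alone 9, for LY6C against BM in polysomal RNA. With no filter on low counts there were 13 for LY6G against BM in total RNA, 11 and 21 for LY6C and LY6G against BM in polysomal RNA, and 5 for BM polysomal against total RNA.

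Leaving out libraries gave 0 to 4 for LY6C and 3 to 10 for LY6G against BM in total RNA, 1 to 11 and 4 to 18 in polysomal RNA (1 to 4 and 6 to 12 when single LY6C or LY6G libraries were left out), and 0 to 0 in every other comparison, BM polysomal against total RNA included. Of 327 refits of the 22 single called results of members, 261 kept the call, 66 lost it and 0 changed sign. Mcm7, Cdt1, Cdc6 and Tk1 in LY6G against BM in polysomal RNA, Cdt1 in LY6C against BM in polysomal RNA, and Mcm2, Mki67 and Tk1 in LY6G against BM in total RNA were called in all 15 alternatives. BM total RNA sets the depth limit, with 422 to 657 counts over all members in a library.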
